A study of Mus musculus with 11 samples.

Results

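The 10 genes described here encode the classical cell cycle cyclins of mice: Ccnd1, Ccnd2 and Ccnd3 (type D), Ccne1 and Ccne2 (type E), Ccna1 and Ccna2 (type A), and Ccnb1, Ccnb2 and Ccnb3 (type B). They were taken by gene symbol from the table of unique molecular identifiers (UMIs, random tags that mark single RNA molecules). All 10 were present among the 20389 rows of that table. They were followed from spermatogonia, the dividing germ cells of the testis, to late pachytene of meiosis.

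The cells came from the testes of 3 adult mice that carry a Dazl-GFP reporter, a green fluorescent protein driven by a gene of germ cells. Live GFP-positive cells were sorted singly into plate wells and sequenced by SORT-Seq, which tags the 3′ ends of polyadenylated RNA. Mouse 1 gave 8 libraries made with CEL-Seq1, mouse 2 gave 1 library and mouse 3 gave 2 libraries made with CEL-Seq2. Index sorting was used for all libraries except 1 of mouse 3, for which cells were taken with a gate. Neither the labels nor the design text name a treatment, a strain or an age beyond adult, and no group of mice is set against another. Stages are therefore compared inside every animal, with the 3 animals as replicates. Because CEL-Seq1 was used for mouse 1 alone, protocol and mouse cannot be told apart.

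A cyclin activates a cyclin-dependent kinase (CDK), and its level in a dividing cell rises and falls with the phase of the cycle. D-type cyclins pair with Cdk4 and Cdk6 and carry growth signals into the cycle, E-type cyclins pair mainly with Cdk2 at the start of DNA replication, A-type cyclins act in replication and before division, and B-type cyclins pair with Cdk1 to drive division itself. Male germ cells divide by mitosis as spermatogonia, replicate their DNA a last time before meiosis in preleptotene, and then pass through leptotene, zygotene and pachytene, in which homologous chromosomes pair and recombine. Ccna1, unlike Ccna2, is known for its expression in germ cells.

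Of 1920 wells, 1448 had at least 1000 UMIs and were kept as cells, and 1274 of these fell into 12 stages ordered from earliest to latest (497 cells of mouse 1, 299 of mouse 2 and 478 of mouse 3). The 10 cyclins took no part in building the stages. Stage 1 was undifferentiated spermatogonia-like and stage 2 differentiating spermatogonia-like, stages 3 and 4 were left without a name, stage 5 carried the preleptotene-like name, the next 4 stages (6 to 9) that of leptotene and zygotene-like cells, and the last 3 (10 to 12) that of pachytene-like cells. Names rest on marker lists, and no deposited annotation of the cells was used. The name of stage 9 is the least clear of the leptotene and zygotene-like ones. From stage 8 to stage 9 pachytene markers rose from 1179, 1735 and 2220 CPM in mice 1, 2 and 3 to 2912, 3196 and 4887 CPM. Leptotene and zygotene markers fell from 11723, 13191 and 13265 CPM to 8983, 10989 and 9184 CPM, still above the pachytene markers. Stage 9 may thus hold cells at the border to pachytene. Levels are given as CPM, the UMIs of a gene divided by all UMIs of the summed cells of a mouse and stage and scaled to counts per 1000000. Since SORT-Seq counts 1 tag per molecule, the CPM of different genes can be compared without a length correction. The smallest of the 36 sums held 13 cells, and the median depth per cell ran from 6657 UMIs in stage 7 to 85565 in stage 12. UMIs per spike-in molecule, a measure of RNA per cell, stood at a log2 of -1.81 ± 0.31 (SD, n = 3) relative to stage 1 in stage 6 and at 1.67 ± 0.39 in stage 12, so a level in CPM and a level per cell can move differently.

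All 10 cyclins changed over the 12 stages (edgeR quasi-likelihood F test, Benjamini-Hochberg adjusted over the 11116 genes tested), as did 95.5% of all genes tested. Between stage 12 and stage 1, 3 cyclins were higher (Ccna1, Ccnb2 and Ccne2) and 6 were lower (Ccna2, Ccnb1, Ccnb3, Ccnd1, Ccnd2 and Ccnd3), and Ccne1 was not called. Of all genes, 35.8% were higher and 40.1% lower in the same comparison, with a median log2 change of -0.12. Over the 11 later stages, 86 of 110 comparisons of a cyclin with stage 1 were called, beside 55.7% for all genes. Over the 11 steps from a stage to the next, 25 of 110 cyclin comparisons were called, beside 15.6% for all genes. The summed level of the 10 cyclins was 1102 ± 370.1 CPM (SD, n = 3) in stage 1, 1326 ± 241 CPM in stage 3, 489.8 ± 82.0 CPM in stage 5 and 406 ± 85.9 CPM in stage 12.

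**Figure D1:**
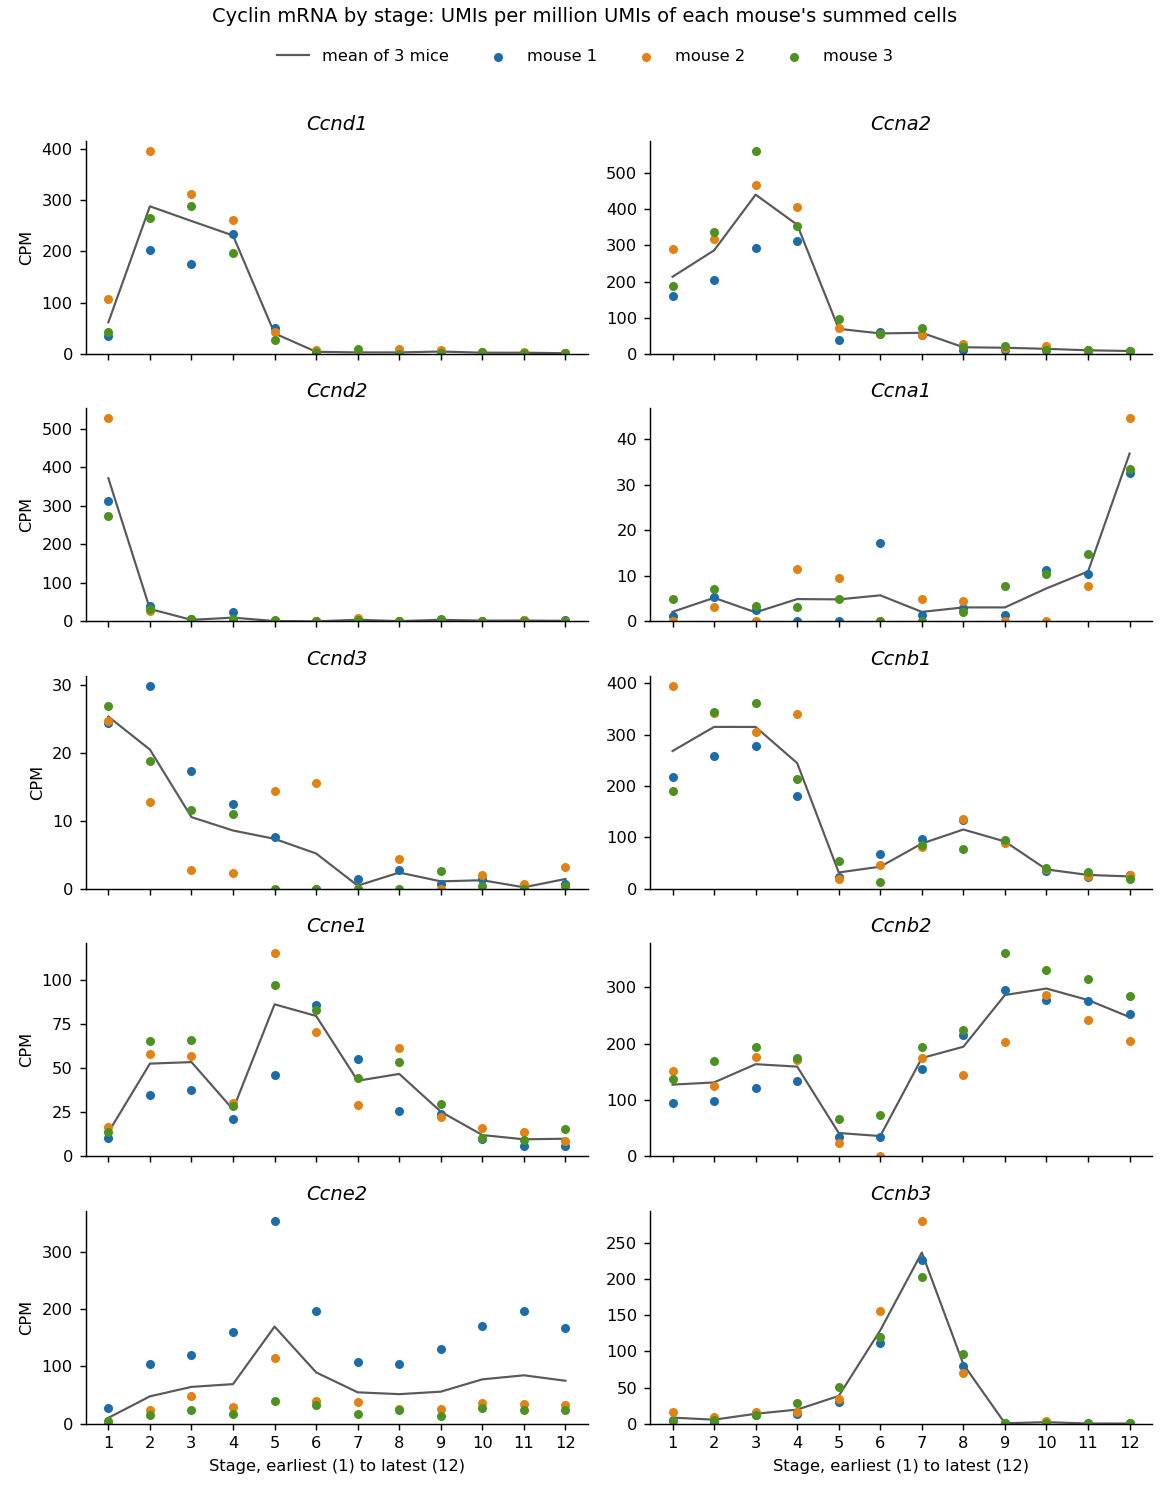
Levels of the 10 cyclins in each of the 12 stages, in CPM of the summed cells (linear axes that start at 0 and differ between panels); points are single mice and the grey line is the mean of the 3 mice. The peak moves from stage 1 for Ccnd2 to stage 12 for Ccna1, and Ccne2 is higher in mouse 1 than in the other mice at every stage.

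Ccnd2, a D-type cyclin, was highest in the earliest stage. In stage 1 it stood at 314 CPM in mouse 1, 527 in mouse 2 and 275 in mouse 3. In stage 2 the values were 39.9, 25.8 and 31.2 CPM, so every mouse lay far below its own stage 1 and the stages did not overlap. The libraries of mouse 3 differed in stage 2, at 12.9 CPM (gate) and 70.9 CPM (index). Both lay below their stage 1 levels of 241 and 322 CPM. The fall from stage 1 to stage 2 was -3.39 ± 0.30 on the log2 scale (SE, adjusted p = 1.02e-10), and a further fall of -2.74 ± 0.55 followed from stage 2 to stage 3 (adjusted p = 0.000623, and 0.0525 without the mouse block). From stage 3 on, no mouse exceeded 23.1 CPM. In stage 6 no Ccnd2 UMI was counted among 461567 UMIs of the 3 mice. A count of 0 allows up to 6.5 CPM there (3 UMIs over the group, counting error only), which puts Ccnd2 at least 51.0-fold lower than the 332 CPM of the pooled stage 1. Stage 12 was lower than stage 1 by -7.33 ± 0.41 (adjusted p = 4.85e-18).

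Ccnd1, the D-type cyclin best known as a target of growth signals, came up as Ccnd2 went down. It stood at 34.8, 107 and 43.0 CPM in mice 1, 2 and 3 in stage 1 and at 203, 396 and 265 CPM in stage 2, a rise of 2.35 ± 0.26 (adjusted p = 5.94e-09). In stages 3 and 4 it stayed between 176 and 313 CPM, and it was not called in either step. It then fell by 2.58 on the log2 scale into preleptotene-like stage 5 (SE 0.35, adjusted p = 3.87e-07), where the mice held 49.97, 43.3 and 26.7 CPM. From stage 6 on, no mouse held more than 8.8 CPM, and stage 12 was lower than stage 1 by -4.69 ± 0.44 (adjusted p = 4.34e-12).

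Ccnd3, the remaining D-type cyclin, was low throughout. In stage 1 it stood at 24.5, 24.7 and 27.0 CPM, and in stage 12 at 0.7, 3.2 and 0.5 CPM, so the stages did not overlap. No single step passed the test for Ccnd3, yet stage 12 was lower than stage 1 by -4.49 ± 0.65 (adjusted p = 8.06e-08). Its decline was spread over stages whose ranges overlapped, and none of the 11 neighbouring pairs of stages, ordered by mean level, were apart.

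Within the D type, Ccnd2 made up 81.3 ± 2.45% of UMIs (SD, n = 3) in stage 1 and 10.2 ± 4.37% in stage 2. The share of Ccnd1 went from 12.7 ± 3.46% to 83.2 ± 8.41%, with every mouse moving the same way. The summed D-type level was 459 ± 174 CPM in stage 1, 249 ± 30.05 CPM in stage 4, 48.2 ± 16.5 CPM in stage 5 and 4.18 ± 0.77 CPM in stage 12. After stage 5 the D-type sums held at most 21 UMIs per mouse, too few for shares to be read.

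**Figure D2:**
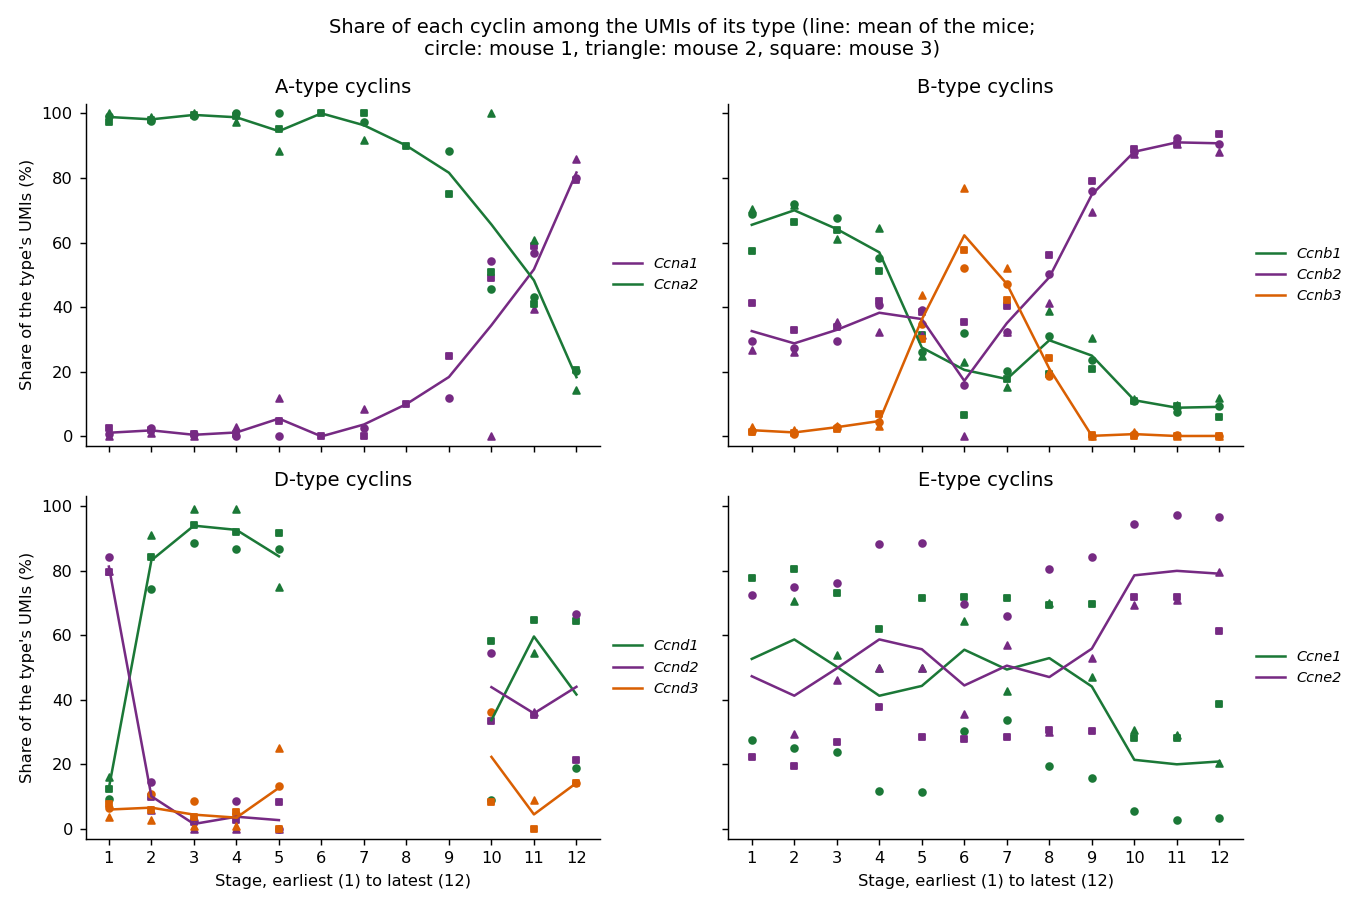
Share of each cyclin among the UMIs of its type, in percent, for each stage; lines are means over the mice and symbols are single mice, with sums of fewer than 10 UMIs of a type left out. Ccnd2 gives way to Ccnd1 between stages 1 and 2, Ccnb1 to Ccnb3 and then Ccnb2 in the B type, and Ccna2 to Ccna1 by stage 12.

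Ccne1 encodes an activator of Cdk2 at the start of DNA replication. It stood at 10.3, 16.5 and 13.98 CPM in mice 1, 2 and 3 in stage 1 and at 34.7, 57.9 and 65.3 CPM in stage 2, a rise of 1.98 ± 0.34 (adjusted p = 1.9e-05). In stage 4 the mice held 21.3, 30 and 28.5 CPM, and in preleptotene-like stage 5 they held 46.1, 115 and 97.3 CPM, above stage 4 in every mouse. That rise was 1.68 ± 0.34 (adjusted p = 0.000244), and the mean of 86.3 ± 36.0 CPM (SD, n = 3) was the highest of the 12 stages, although it overlapped stage 6.

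By stage 12 Ccne1 was back at 6.1, 8.5 and 15.4 CPM, a range that overlaps stage 1. The difference was -0.02 ± 0.38 (adjusted p = 0.973), which leaves its direction unset, and 8 alternatives gave a value above 0. With spike-in molecules as the scale, which compares levels per cell, Ccne1 was higher in stage 12 than in stage 1, at 1.41 ± 0.41 (adjusted p = 0.00167). That scale moved the median of all genes to 1.29.

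Ccne2, the other E-type cyclin, rose in the same steps into stages 2 and 5 as Ccne1 but differed widely between mice. No step down was called for it (stage 6 against 5, -0.87, adjusted p = 0.0643). In stage 1 it stood at 27.1 CPM in mouse 1, 0 in mouse 2 and 4.0 in mouse 3, and in stage 5 at 354, 115 and 38.9 CPM. Mouse 1 was the highest of the 3 at every stage, 3.27 to 13.6 times the mean of mice 2 and 3, with a median of 5.47 times over the 12 stages. For Ccne1 the same ratio ran from 0.43 to 1.52. Over all stages, Ccne2 had 1.92 reads per UMI in mouse 1, 2.53 in mouse 2 and 1.89 in mouse 3, so mouse 1 did not stand apart in that measure. Mouse 1 was the mouse with CEL-Seq1, and protocol and animal cannot be told apart.

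Within each mouse, Ccne2 followed the order of stages in a similar way. It rose by 2.13 ± 0.30 from stage 1 to stage 2 (adjusted p = 9.45e-07) and by 1.33 ± 0.23 from stage 4 to stage 5 (adjusted p = 3.14e-05), and every mouse had its highest level in stage 5. Stage 12 held 168, 32.9 and 24.3 CPM, above stage 1 in every mouse, with a log2 difference of 2.96 ± 0.28 (adjusted p = 3.65e-12). Without the mouse block, the stage 12 difference was 2.90 (adjusted p = 0.0621), and the steps into stages 2 and 5 had adjusted p = 0.382 and 0.551.

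Ccna2, the A-type cyclin of dividing cells, was high in all of the first 4 stages. It stood at 160.0, 291 and 189 CPM in mice 1, 2 and 3 in stage 1 and at 292, 468 and 561 CPM in stage 3, where its mean was highest. In CPM every mouse was higher in stage 3 than in stage 1, by a log2 difference of 1.05 ± 0.15 (adjusted p = 7.34e-07). The separate steps into stage 2 (0.46 ± 0.15, adjusted p = 0.0187) and stage 3 (0.59 ± 0.14, adjusted p = 0.00326) did not pass without the mouse block (adjusted p = 0.397 and 0.274). They also did not pass without mouse 3 (adjusted p = 0.369 and 0.0572). On the spike-in scale neither step was called, at 0.46 into stage 2 (adjusted p = 0.142) and -0.24 into stage 3 (adjusted p = 0.318). Per 1000 spike-in UMIs, Ccna2 went from 23.9, 15.7 and 6.38 UMIs in stage 1 to 24.0, 12.7 and 12.5 in stage 3, so the rise in every mouse holds in CPM and not on that scale. Spermatid markers, which belong to cells after meiosis, were at 370 to 2092 CPM in stage 3, and with the cells rich in such markers left out both steps were still called.

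Ccna2 then fell at the entry to preleptotene-like stage 5. Stage 4 held 311, 406 and 354 CPM and stage 5 held 38.4, 72.2 and 97.3 CPM, with no overlap, a log2 change of -2.32 ± 0.20 (adjusted p = 5.86e-11). A further fall of -1.73 ± 0.34 came between stages 7 and 8 (adjusted p = 0.000571). In stage 12 the mice held 8.2, 7.4 and 8.7 CPM, and Ccna2 was lower than in stage 1 by -4.27 ± 0.20 (adjusted p = 1.59e-20).

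Ccna1, the A-type cyclin of germ cells, was near its floor until late. Through stage 9 no mouse held more than 12 UMIs of it in any stage. Ccna1 was called above stage 1 in stage 10 (1.92 ± 0.74, adjusted p = 0.0204) and in stage 11 (2.28 ± 0.70, adjusted p = 0.00381). In stage 10 mice 1, 2 and 3 held 32, 0 and 25 UMIs of it. In stage 11 it stood at 10.4, 7.7 and 14.8 CPM and in stage 12 at 32.5, 44.6 and 33.5 CPM, so all mice were higher in stage 12 than any mouse in stage 11. A few cells carried much of that level: 1 cell held 53 of the 139 stage 12 UMIs of mouse 1, 1 held 16 of 42 in mouse 2 and 1 held 36 of 139 in mouse 3. The median cell held 1, 1 and 2 UMIs in stage 12 and 1, 0 and 1 in stage 11. From stage 11 to 12 the gate-sorted library of mouse 3 went from 13.8 to 36.6 CPM. The index-sorted library of that mouse went from 16.6 to 19.1 CPM, with 14 UMIs in stage 12. The step was 1.74 ± 0.39 (adjusted p = 0.00258), but it was not called without the mouse block (adjusted p = 0.7) or in the table of reads (adjusted p = 0.756). Against stage 1, which held 1, 0 and 5 UMIs in the mice, stage 12 held 139, 42 and 139 UMIs, a log2 difference of 4.02 ± 0.63 (adjusted p = 3.64e-07). From the pooled counts the ratio was 12.2, with a counting interval of 5.54 to 33.5 (95%, exact, counting error only). The share of stage 12 cells with at least 1 Ccna1 UMI was 79.4 ± 5.53% (SD, n = 3), and 6.59 ± 1.93% when each cell was thinned to 2000 UMIs. In stage 1 these shares were 5.75 ± 6.57% and 0.37 ± 0.48%.

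The A type thus held almost only Ccna2 in stage 1 and mostly Ccna1 in stage 12. Ccna1 made up 0.8% of the A-type UMIs of mouse 1 in stage 1 (exact 95% interval 0.02 to 4.38%), 0% in mouse 2 (0 to 3.42%) and 2.58% in mouse 3 (0.84 to 5.91%). In stage 12 the shares were 79.9% (73.2 to 85.6%), 85.7% (72.8 to 94.1%) and 79.4% (72.7 to 85.2%). The difference within a mouse was 80.6 ± 4.61 percentage points (SD, n = 3), higher in 3 of 3 mice, with p = 0.25 by an exact two-sided sign-flip permutation test, the smallest that 3 mice allow. In absolute terms Ccna1 stayed low: the summed A-type level was 442 ± 137 CPM in stage 3 and 45.0 ± 6.14 CPM in stage 12.

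Ccnb1 and Ccnb2 encode the main B-type partners of Cdk1. Promoter sequences from RefSeq (GRCm38.p6), matched by symbol, were found for 6 of the 10 cyclins. The 3 of the B type are shown from 120 bases before to 30 bases after the annotated start, since these genes fell together or parted along the stages. Capitals mark matches on either strand to CCAAT (the CCAAT box), to TTTGAA (the core of the cell cycle homology region) and to GGGCGG (the GC box), which do not overlap each other here. TTTNNCGC, an E2F motif, was also searched and not found in any of the 3. All lie on the minus strand and read 5′ to 3′ along the gene.
Ccnb1, chr13:100786457-100786606: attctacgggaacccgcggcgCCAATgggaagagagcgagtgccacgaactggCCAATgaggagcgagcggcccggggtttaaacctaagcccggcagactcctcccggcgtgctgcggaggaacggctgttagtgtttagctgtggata
Ccnb2, chr9:70421525-70421674: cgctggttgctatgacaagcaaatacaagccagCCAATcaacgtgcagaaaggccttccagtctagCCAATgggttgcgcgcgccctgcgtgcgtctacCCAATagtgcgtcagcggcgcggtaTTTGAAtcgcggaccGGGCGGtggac
Ccnb3, chrX:7041590-7041739: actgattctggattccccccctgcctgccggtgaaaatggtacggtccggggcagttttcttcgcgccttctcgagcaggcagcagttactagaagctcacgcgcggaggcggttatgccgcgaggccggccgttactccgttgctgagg

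The window of Ccnb1 holds 2 CCAAT matches, that of Ccnb2 holds 3 CCAAT matches with 1 TTTGAA and 1 GGGCGG, and that of Ccnb3 holds none of the motifs. Over the full 300 bases of the 32851 RefSeq promoters, CCAAT is found in 37.4%, TTTGAA in 17.9%, GGGCGG in 35.7% and TTTNNCGC in 5.17%. Within those 300 bases Ccnb1 holds 2 CCAAT and 3 GGGCGG matches, Ccnb2 holds 3 CCAAT, 2 TTTGAA and 1 GGGCGG, and Ccnb3 again holds none. A match is a description of letters and not of binding.

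Ccnb1 was high in stages 1 to 4. It stood at 218, 395 and 191 CPM in mice 1, 2 and 3 in stage 1 and at 181, 339 and 213 CPM in stage 4, and none of the steps between them was called. Stage 5 held 23.1, 19.2 and 53.5 CPM, below every earlier sum, a fall of 2.71 on the log2 scale (SE 0.34, adjusted p = 1.06e-07). In leptotene and zygotene-like stage 8 the mice held 133, 136 and 77.3 CPM. Its log2 difference from stage 1 went from -2.90 ± 0.33 in stage 5 to -1.19 ± 0.26 in stage 8, but no step up was called (7 against 6, 1.29 ± 0.48, adjusted p = 0.052). It fell again by 1.2 between stages 9 and 10 (SE 0.26, adjusted p = 0.00054), a step that on the spike-in scale was -0.17 (adjusted p = 0.63). In stage 12 the values were 26.4, 27.6 and 18.6 CPM, lower than stage 1 by -3.14 ± 0.24 (adjusted p = 1.78e-14).

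Ccnb2 fell with Ccnb1 at preleptotene-like stage 5 and then, unlike Ccnb1, exceeded its starting level. Stage 4 held 133, 171 and 174 CPM and stage 5 held 34.6, 24.1 and 65.6 CPM, a change of -1.85 ± 0.28 (adjusted p = 3.02e-06). In stage 6 the values were 34.3, 0 and 73.7 CPM, and in stage 7 they were 155, 174 and 195 CPM, a rise of 2.07 ± 0.34 (adjusted p = 2.24e-05). In mouse 2 the 0 stands for no UMI in 21 cells, and all stage 7 sums lay above all stage 6 sums.

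In pachytene-like stage 10 Ccnb2 reached 277, 287 and 330.5 CPM, its highest mean, although stages 9 and 11 overlapped it. Stage 12 held 253, 205 and 284 CPM, all above the 94.2, 151 and 137 CPM of stage 1, and the difference was 1.30 ± 0.19 (adjusted p = 6.98e-08). Counted per cell, Ccnb2 went from 3.68 ± 0.66 UMIs (SD, n = 3) in stage 1 to 0.34 ± 0.39 in stage 6 and 23.5 ± 9.5 in stage 12, where the depth per cell was also highest. On the spike-in scale the difference between stages 12 and 1 was 2.67 ± 0.28 (adjusted p = 1.32e-12), and that of Ccnb1 was -1.78 ± 0.30 (adjusted p = 4.41e-07).

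Ccnb3, a B-type cyclin known from germ cells and carried on the X chromosome, had a narrow window. In stage 1 it stood at 5.2, 16.5 and 4.0 CPM in mice 1, 2 and 3. It reached 112, 156 and 119.7 CPM in stage 6 and 226, 281 and 203 CPM in stage 7, then 79.4, 70.1 and 97.1 CPM in stage 8. The 3 stages did not overlap each other, and stage 7 was the highest in every mouse. Against stage 1 the log2 difference in stage 7 was 5.03 ± 0.36 (adjusted p = 2.03e-14).

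In stage 9 only 2 UMIs of Ccnb3 were counted, 1 in mouse 1, 0 in mouse 2 and 1 in mouse 3, beside 93 in stage 8. The fall was -6.43 ± 0.56 in the fit (adjusted p = 5.16e-11). The pooled ratio of the levels was 0.0095, with an exact 95% counting interval of 0.0011 to 0.035. From stage 9 on no mouse held more than 4.0 CPM, and stage 12 held 5 UMIs beside 14 in stage 1, a pooled ratio of 0.0816 (0.023 to 0.24). The step into stage 6 was 1.71 ± 0.37 (adjusted p = 0.00354). It lost its call without mouse 2 (adjusted p = 0.0748) and in the table of reads (0.0765). The step into stage 7 was 0.85 ± 0.29 (adjusted p = 0.0352), and the call was lost when any of the 3 mice was left out (adjusted p = 0.0959 to 0.176). Among cells with at least 2000 UMIs, each thinned to 2000, 36.8 ± 1.34% in stage 7 had a Ccnb3 UMI (SD, n = 3), against 0.35 ± 0.51% in stage 9. Without thinning the shares of the same cells were 72.3 ± 6.19% and 1.83 ± 1.73%. In stage 7 the limit left out 3, 1 and 8 cells of mice 1, 2 and 3. The 2 libraries of mouse 3 gave 139 CPM (gate) and 282 CPM (index) in stage 7.

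Within the B type, the leading cyclin changed along the stages. Ccnb1 led in stage 1 with 68.7%, 70.2% and 57.5% of the UMIs in mice 1, 2 and 3, and Ccnb3 led in stage 6 with 52.0%, 76.9% and 57.8%. In stage 12 Ccnb2 held 90.4%, 88.1% and 93.6%, and the ranges of Ccnb2 in stages 1 and 12 did not overlap. The summed B-type level was 404 ± 138 CPM in stage 1, 112 ± 50.8 CPM in stage 5, 499 ± 32.6 CPM in stage 7 and 272 ± 36.2 CPM in stage 12. The mean A-type and D-type sums fell further, from 215 and 459 CPM in stage 1 to 45.0 and 4.18 CPM in stage 12. In the A, B and D types alike, every mouse in stage 12 lay below every mouse in stage 1.

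The steps at which the cyclins moved were not spread evenly. Calls over all genes were uneven as well, from 2.1% to 28.2% per step, so this trait is not particular to the cyclins. From stage 1 to 2, Ccna2, Ccnd1, Ccne1 and Ccne2 rose and Ccnd2 fell, with 28.2% of all genes called. From stage 2 to 3, Ccna2 and Ccnb3 rose and Ccnd2 fell, with 16.6% of all genes called. The Ccnb3 call in that step (1.48 ± 0.47, adjusted p = 0.0261) was lost without mouse 1 (adjusted p = 0.236), without mouse 3 (0.11), without the gate-sorted library (0.174), without the mouse block (0.144) and on the spike-in scale (0.288). No cyclin was called from stage 3 to 4, where 2.1% of genes were.

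The step into preleptotene-like stage 5 moved the most cyclins: Ccna2, Ccnb1, Ccnb2 and Ccnd1 fell while Ccne1 and Ccne2 rose, 6 of 10 cyclins beside 27.8% of all genes. All 6 kept their sign and call under the 14 alternatives in which steps were compared, except Ccne2 without the mouse block. Steps were not compared where the stages were rebuilt, from even-numbered autosomes or at the lower Leiden resolution. Markers of Sertoli cells, the somatic cells that nurse germ cells, were at 217 to 691 CPM in stage 5 and at 51.6 to 193 CPM in stage 4. With the 5 stage 5 cells rich in spermatid or Sertoli markers and 16 such cells of other stages left out, the 6 calls stood.

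Later steps each moved few cyclins. Into stage 6 Ccnb3 rose (6.07% of all genes called), into stage 7 Ccnb2 and Ccnb3 rose (19.2%), and into stage 8 Ccna2 and Ccnb3 fell (11.6%). The Ccnb3 fall into stage 8 was not called in the table of reads (adjusted p = 0.162). Into stage 9 Ccnb2 rose and Ccnb3 fell (25.2%). The Ccnb2 rise of 0.62 ± 0.19 (adjusted p = 0.0174) was lost without mouse 3 (adjusted p = 0.229) and without the mouse block (0.364). Into stage 10 Ccne2 rose and Ccnb1 and Ccne1 fell (24%). The Ccne2 call did not hold when any of the 3 mice was left out (adjusted p = 0.0941 to 0.275), without the gate-sorted library (0.178) or without the mouse block (0.95). The Ccne1 call did not hold without mouse 1 (adjusted p = 0.0875), without mouse 3 (0.119), without the gate-sorted library (0.0985) or without the mouse block (0.0991), and was -0.12 on the spike-in scale. No cyclin was called into stage 11 (3.07%), and Ccna1 rose into stage 12 (7.87%).

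**Figure D3:**
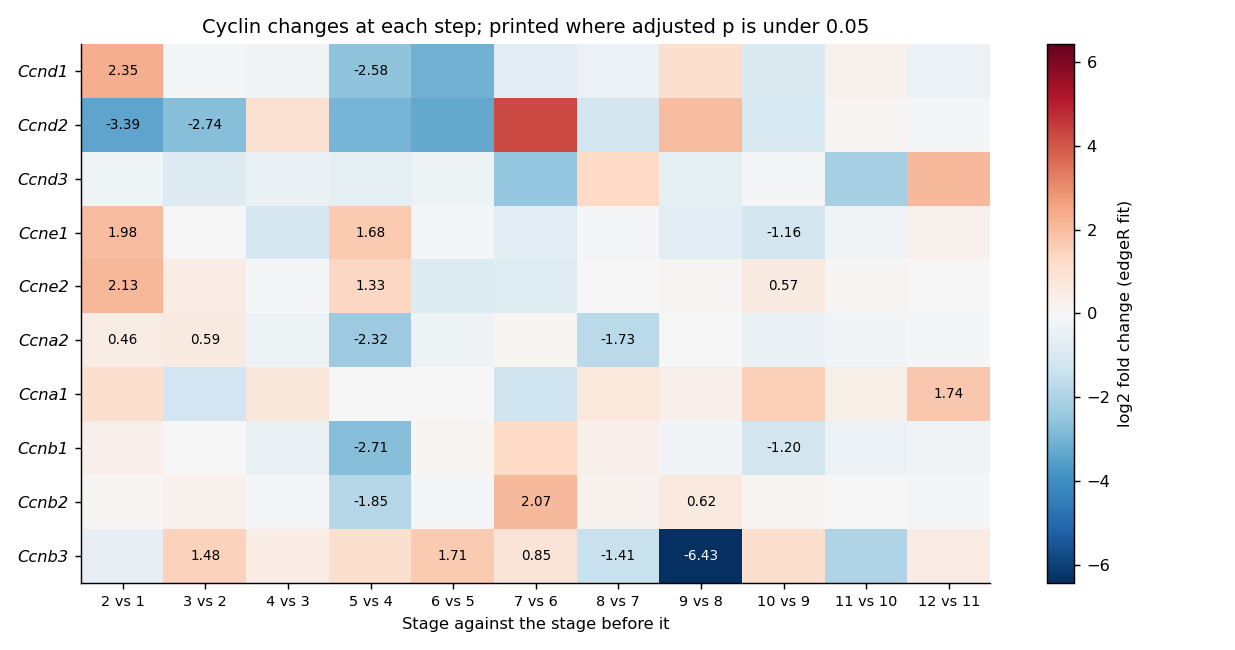
Change of each cyclin from a stage to the next, as log2 fold change of the edgeR fit (red higher, blue lower), with the value printed where the adjusted p is under 0.05. The column for stage 5 against stage 4 holds 6 printed values, and the deepest is the fall of Ccnb3 in stage 9; unprinted deep colours, such as Ccnd2 after stage 4, rest on few UMIs.

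The partners of the cyclins were read from lists of 49 genes, of which 48 were in the table and 47 passed the filter on low counts. Between stage 12 and stage 1, 14 were higher, 28 lower and 5 not called, with a median log2 change of -1.13 beside -0.12 for all genes. On the spike-in scale the split was 22 higher and 13 lower, and over all genes 6856 higher and 2236 lower in place of 3977 and 4457.

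All 5 kinases were called. Cdk2, the partner of the E and A types, went from 46.5, 124 and 84.9 CPM in mice 1, 2 and 3 in stage 1 to 155, 244 and 159 CPM in stage 12 (1.48 ± 0.16, adjusted p = 1.2e-10). Cdk4, the partner of the D type, went from 219, 228 and 255 CPM to 80.4, 47.7 and 72.1 CPM (-1.46 ± 0.14, adjusted p = 1.1e-11), and Cdk6 fell by 2.51. The ranges of stages 1 and 12 were apart for Cdk2 and for Cdk4, but on the spike-in scale Cdk4 was -0.08 ± 0.23 and not called (adjusted p = 0.742). Cdk7, which activates other CDKs, fell by 0.60 but was 0.81 on the spike-in scale. Cdk1, the partner of the B type, was 0.46 ± 0.19 (adjusted p = 0.0325), and its ranges overlapped, at 69.7, 137 and 79.9 CPM against 109, 95.5 and 95.7 CPM. The Cdk1 call did not hold without mouse 1 (adjusted p = 0.0612), without mouse 3 (0.306), without the gate-sorted library (0.115) or without the mouse block (0.159). Cdk1 also lost its call with DESeq2 size factors (adjusted p = 0.148) and in the DESeq2 test (0.18). The same held in the tables of reads (0.267) and of transcripts (0.0519) and with stages from even-numbered autosomes (0.0512), so the Cdk1 call is weak. The mean of Cdk1 was 35.4 CPM in stage 5 and 405 CPM in stage 8, the highest of all stages.

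The 6 tested CDK inhibitors split by family member. Cdkn2c and Cdkn2d, inhibitors of Cdk4 and Cdk6, rose by 3.63 ± 0.27 and 3.10 ± 0.23. Cdkn2c stood at 7.7, 16.5 and 14.98 CPM in stage 1 and at 124, 153 and 117 CPM in stage 12. The other 4 fell: Cdkn1a by 2.79, Cdkn1b by 5.08, Cdkn1c by 3.89 and Cdkn2a by 3.28. Cdkn1b, a broad inhibitor, was at 52.9, 85.1 and 52.9 CPM in stage 1 and already at a mean of 0.9 CPM in stage 2, the step at which Ccnd2 fell. Cdkn1b was then called higher in the step from stage 4 to stage 5.

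Of the 5 genes that switch CDKs by phosphorylation, the activating phosphatases Cdc25a, Cdc25b and Cdc25c fell by 1.95, 3.47 and 3.70, and the inhibitory kinase Wee1 fell by 1.60. On the spike-in scale Cdc25a (-0.51, adjusted p = 0.0863) and Wee1 (-0.20, adjusted p = 0.483) were not called. The inhibitory kinase Pkmyt1 rose by 2.998 ± 0.25, from 20.6, 16.5 and 25.0 CPM to 121, 75.3 and 190.0 CPM. Of the 8 accessory and turnover genes, Cks2 (1.57 ± 0.17) and Cdc20 (1.38 ± 0.23), which directs cyclins to degradation, were higher in stage 12, 4 fell (Cks1b, Skp2, Ube2c and Fbxo5) and Fbxw7 and Fzr1 were not called. On the spike-in scale Ube2c (-0.52) and Fbxo5 (-0.32) were not called, and Fbxw7 (1.54) and Fzr1 (1.61) were higher. The 2 CDK-binding Cks subunits thus moved in opposite directions, Cks1b by -2.51 ± 0.19.

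Of the 17 other cyclin-box genes tested, 6 were higher, 9 lower and 2 not called. Cntd1, which is needed for crossovers in meiosis, rose by 4.62 ± 0.36, from 5.2, 5.5 and 6.0 CPM to 190.1, 65.8 and 83.9 CPM, and Ccnk, a partner of the kinases that act on RNA polymerase, rose by 2.19 ± 0.13. Of 6 division markers, Pcna, a replication clamp, was higher (1.10 ± 0.14), while Mki67, Rrm2, Tyms and Cenpf were lower and Top2a was not called. On the spike-in scale Mki67 (0.59), Rrm2 (0.04), Tyms (0.25) and Top2a (1.33) had the opposite sign, as did the cyclin-box genes Ccnl1, Ccnl2 and Ccnt2. Rrm2 (adjusted p = 0.919), Tyms (0.546) and Ccnl2 (0.0517) were not called on that scale, nor was Cenpf (-0.14). Mki67 stood at a mean of 696 CPM in stage 6, where Ccna2 was at 56.7 CPM.

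**Figure D4:**
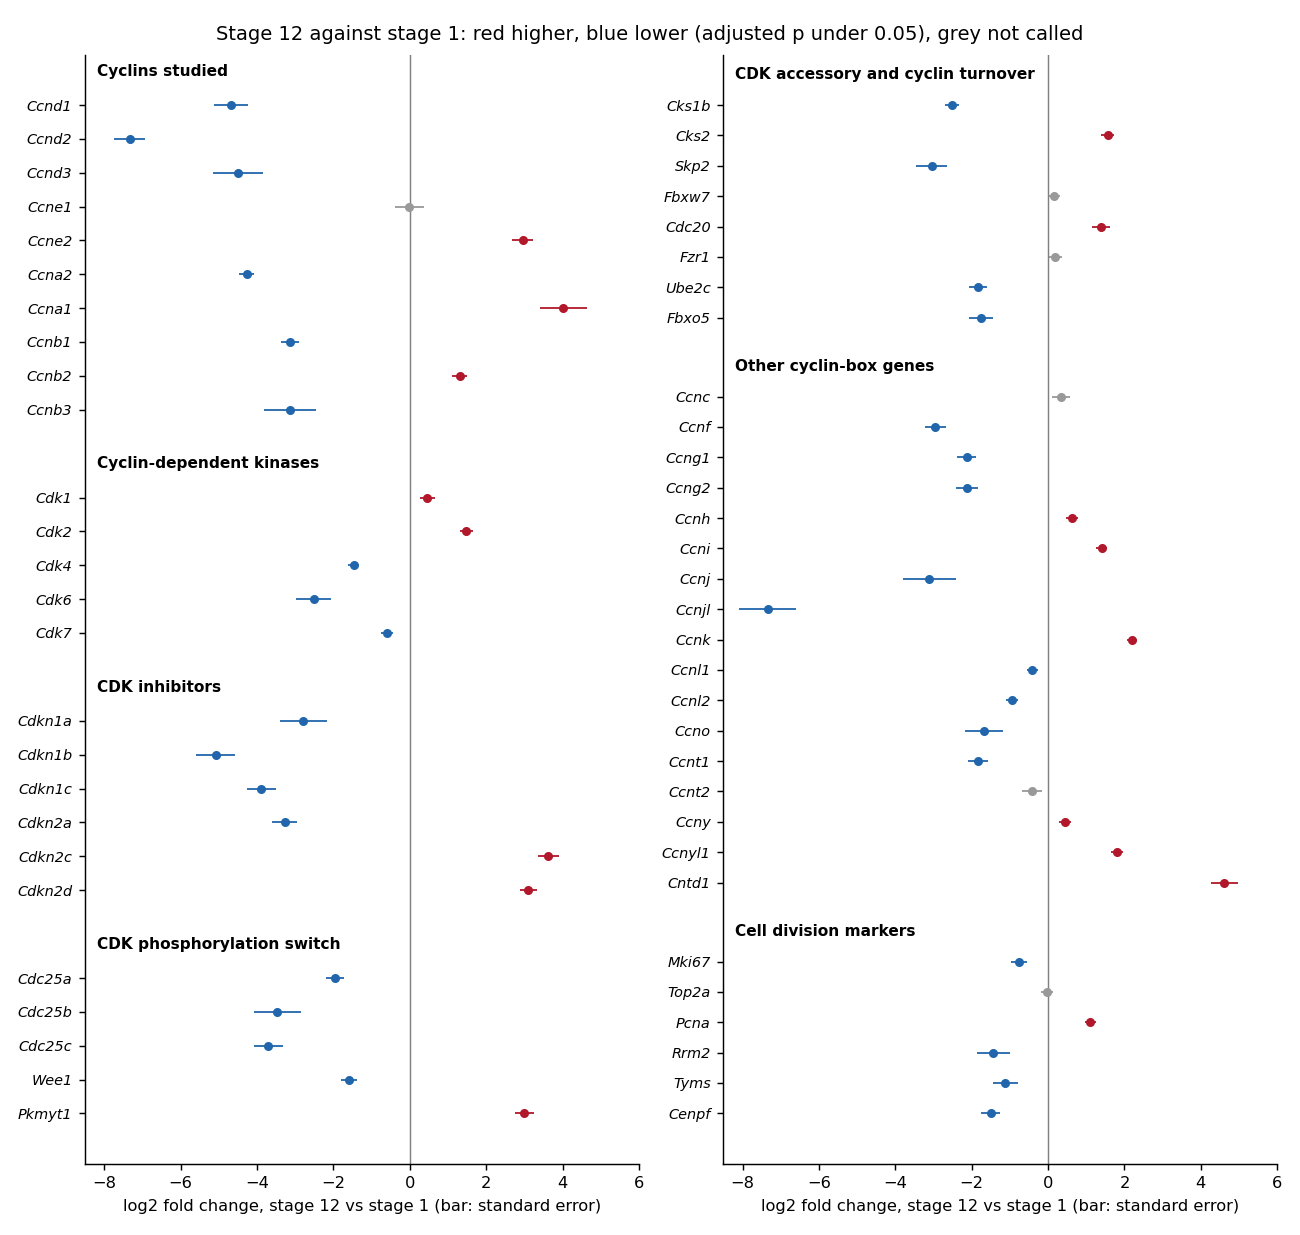
Log2 fold change between stage 12 and stage 1 for the 10 cyclins and the 47 tested partner and regulator genes, with standard errors as bars; red is higher and blue lower at an adjusted p under 0.05, and grey was not called. The D-type cyclins sit between -7.33 and -4.49 and Ccna1 at 4.02.

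Genes whose pattern was most like that of a cyclin were listed by the Pearson correlation of log2(CPM + 1) over the 36 sums, which share mice and depth. Ccna2 was most like Cenpa (0.963) and Hmgb3 (0.949), and Ccnb1 most like Aldh16a1 (0.959) and Incenp (0.919). Cenpa encodes the histone of the centromere and Incenp a part of the chromosomal passenger complex. Ccnb3 was most like Slc35a2 (0.937) and Fmr1 (0.915), both X-linked in the table. Hmgb3, and Pcsk1n among the genes most like Ccne1, are X-linked as well. Ccnb2 was most like Mterfd1 (0.934) and Alg11 (0.914), Ccnd1 like Psmd5 (0.954) and Pxdn (0.947), and Ccnd2 like Rimkla (0.891) and Chrna4 (0.877). Ccnd3 followed Rsu1 (0.884) and Arap2 (0.845), Ccne1 Pcsk1n (0.893) and Ppig (0.886), Ccne2 Becn1 (0.824) and C230091D08Rik (0.796), and Ccna1 1700018F24Rik (0.714) and Fkbpl (0.702). From stage 2 on, the mean of Becn1 stayed between 50.5 CPM (stage 8) and 65.9 CPM (stage 12, SD 36.4). C230091D08Rik stood at 35.8 ± 38.9 CPM (SD) in stage 5. Ccne2 was higher in mouse 1 than in the other mice at every stage, and the sums were not adjusted for mouse. Whether these genes follow the stages of Ccne2 or its difference between mice was not tested. Among the cyclins themselves, the pair most alike was Ccna2 and Ccnd1 (0.87), then Ccna2 and Ccnb1 (0.78), and Ccnb1 and Ccnb2 stood at 0.095.

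In the genome (GRCm38, GENCODE vM21), 6 of the cyclins overlap a gene on the other strand: Ccna1 with 4931419H13Rik, Ccna2 with Exosc9, Ccnd1 with LTO1, Ccnd2 with 9330179D12Rik and Gm43126, Ccnd3 with Bysl and Ccne2 with Ints8. Whether the authors counted by strand is not given in the sources used here, so reads of such a pair cannot be told apart from the tables. Ccnb1, Ccnb2 and Ccnd3 have a pseudogene copy named after them, and their counts are uncertain to that extent. Ccnb1 lies at 13:100778650-100786570, Ccnb2 at 9:70407692-70421547, Ccnb3 at X:6979652-7041619 and Ccna1 at 3:55045469-55055501, all on the minus strand.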

How the data were processed

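Per the labels' protocols, single cells were sorted into plates and made into CEL-Seq1 or CEL-Seq2 libraries, and per the submitters' processing notes reads were mapped with BWA 0.7.10 to mm10. The authors deposited tables of UMI counts, of read counts and of transcripts, the last being expected counts (estimated molecules, not whole numbers, rounded before a test). The UMI counts were used here. Whether counting used strand is not given in the sources used here. In the transcript table the wells of mouse 1 stand in another order and were matched by their profile (768 of 768, lowest correlation 0.998).

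Wells with at least 1000 UMIs were kept. Stages were built from genes of odd-numbered autosomes without the cyclins and list genes: 1500 variable genes, Seurat 5.3.0 anchors across mice, 15 components, Leiden clusters at resolution 1.0 and diffusion pseudotime in scanpy 1.11.5. Other cell cycle genes were not removed. A cluster counted as a stage with at least 10 cells in 2 or more mice and a median depth of at least 1/3 of the overall median. The naming rule was set after the clusters were seen. Each well received 1 sorted cell, and no doublet caller was run.

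UMIs were summed by mouse and stage (16326103, 5796173 and 17639693 UMIs in the stages of mice 1, 2 and 3). Tests used edgeR 4.0.16 (TMM, filterByExpr, quasi-likelihood F tests, stage with the mouse as block) with Benjamini-Hochberg adjustment over all 11116 genes tested and a threshold of 0.05. The block is the animal, whose cells enter all 12 stages. Intervals on shares are Clopper-Pearson (95%) and, like floors of 3 UMIs, cover counting error only. On simulated counts the fit found most of the large changes put in and missed most of the small ones. The cyclins were named by symbol, and the members and lists were chosen with earlier results of these data known. The text names the cyclins, the list genes and, for each cyclin, the 2 genes most like it. The alternatives were other size factors, spike-in (ERCC) library size, DESeq2 1.42.0, no filter, each mouse left out, no mouse block, the other tables, stricter wells or sums, even-numbered autosomes, Leiden resolution 0.6, no gate-sorted library and, chosen after seeing the data, no cells with over 0.2% of UMIs from spermatid or Sertoli markers.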

Additional observations from a re-analysis of the deposited data

Results flagged for a closer look

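Cyclin UMIs were also counted in wells that enter none of the comparisons above, beyond the 3 UMIs that a count of 0 allows. In the 174 kept cells of 2 shallow clusters that formed no stage (639953 UMIs in all) there were 164 UMIs of Ccnb2, 51 of Ccnb1, 41 of Ccne2, 12 of Ccna2, 8 of Ccnd1, 6 of Ccne1, 5 of Ccnd2 and 4 of Ccnb3. On the CPM scale, Ccnb2 stood at 256 CPM and Ccnb1 at 79.7 CPM there.

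In the 472 wells under 1000 UMIs (179485 UMIs in all) there were 24 UMIs of Ccnb2, 17 of Ccna2, 13 of Ccnb1, 12 of Ccne2, 6 each of Ccnb3, Ccnd1 and Ccne1, and 4 of Ccnd2. Ccna1 and Ccnd3 stayed at or under 3 UMIs in both sets of wells.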

How the results depend on the processing

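Across 16 alternatives, the results of single cyclins kept direction and side of the threshold in 665 cases, lost the call in 60 and reversed in 9. Steps between neighbouring stages were compared in 14 of the alternatives, without the runs that rebuilt the stages. Calls between neighbouring stages numbered 25, and 38 on the spike-in scale, 14 with no replicate block (the mouse) and 15 in the read table; leaving out 1 mouse gave 18 to 22. Without the block, 67 calls against stage 1 were made in place of 86, and 78 to 87 with a mouse left out. Partner genes higher in stage 12 numbered 14 (22 on the spike-in scale, 13 to 15 with a mouse left out) and lower ones 28 (13, and 26 to 27). Higher cyclins stayed at 3, lower at 6 and those changed over the stages at 10 with any mouse left out. The rise of the Ccna1 share was 80.6 points, 89.6 in reads and 78.0 to 82.4 with a mouse left out. Reversals: Ccna2 in stage 3 against 2 was -0.24 on the spike-in scale. Ccne1 in stage 12 against 1 was 1.41 on that scale, 0.15 unfiltered, 0.38 without mouse 1, 0.14 without mouse 2, 0.48 in reads, 0.040 with wells of 2000 UMIs, 0.13 with sums of 20 cells and 0.048 with even-numbered autosomes. Also on the spike-in scale, Ccnl1 was 0.97, Ccnl2 0.48, Ccnt2 1.04, Cdk7 0.81, Mki67 0.59, Rrm2 0.041, Top2a 1.33 and Tyms 0.25. Fbxw7 was -0.018 with DESeq2 size factors, -0.017 in the DESeq2 test and -0.033 with even-numbered autosomes. Top2a was 0.11 unfiltered, 0.39 without mouse 2, 0.11 in reads, 0.015 with wells of 2000 UMIs, 0.38 with sums of 20 cells, 0.026 with even-numbered autosomes and 0.21 at resolution 0.6. Without mouse 3, Ccne1 (-0.64) and Top2a (-0.21) kept their sign. For these changes the cause was not tested. Low depth in stages 6 and 7 limits what can be read of the rarer cyclins there.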

Other observations

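In stages 1 to 4, cells with more Ccna2 also tended to have more Ccnb1 and Ccnb2. Over the 12 combinations of mouse and stage, the correlation across cells ran from 0.061 to 0.82 for Ccna2 with Ccnb1 (median 0.475), from 0.058 to 0.724 for Ccna2 with Ccnb2 (median 0.438) and from 0.212 to 0.775 for Ccnb1 with Ccnb2 (median 0.438). For Ccnb1 with Ccne1 it ran from -0.245 to 0.286. In stage 12, the 1 later stage computed, the tendency was not seen in every mouse: the correlation was -0.173, 0.481 and 0.032 in mice 1, 2 and 3 for Ccna2 with Ccnb1, 0.011, 0.227 and -0.008 for Ccna2 with Ccnb2, and 0.272, -0.112 and 0.003 for Ccnb1 with Ccnb2. Cells share a library and depth, and these values are a description.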
